A study of Mus musculus with 6 samples.

Results

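Mitochondrial ribosomal protein genes were taken as the protein-coding rows of the gene table whose symbol begins with Mrpl or Mrps followed by a digit. The rule found 78 genes among the 53023 rows, of which 49 were Mrpl genes, named for the large subunit, and 29 were Mrps genes, named for the small subunit. RNA was sequenced from mouse 2-cell embryos of the ICR strain at 28 h post insemination (hpi). The PIASy-WT group had received mRNA for fluorescently tagged wild-type PIASy, the PIASy-Mut group mRNA for the SUMO ligase mutant PIASy-C335F, each at 100 ng/µl between 1.5 and 3 hpi, and the non-injection group received no mRNA. In the study's methods, injected zygotes were selected for fluorescence at 9 hpi, a selection the non-injected embryos did not pass through. The methods describe this step for embryos cultured on to blastocysts, and their sequencing section does not repeat it. Each group had 2 libraries, each made from a pool of 5 embryos. PIASy, encoded by Pias4, is an E3 ligase that attaches the small protein SUMO to other proteins. The comparisons ask how the mRNAs of the mitochondrial ribosome differed between embryos with excess active ligase and both other groups.

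Mitochondria keep a ribosome of their own, which translates the few proteins encoded by mitochondrial DNA, core subunits of the respiratory chain and of ATP synthase. The RNA of this ribosome is made in the mitochondrion, but all of its proteins are encoded in the nucleus, made in the cytosol and imported. Many of them descend from bacterial ribosomal proteins, and the rest were added during the evolution of mitochondria. The mature oocyte carries a large stock of mitochondria, and replication of mitochondrial DNA is largely paused during the first cleavages, while the embryo passes from maternal mRNA to transcripts of its own genome (zygotic genome activation, ZGA).

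These genes took a smaller share of the fragments in both PIASy-WT libraries than in any other library. Together the 78 genes took 0.326% and 0.399% of all gene-assigned fragments in the non-injection libraries and 0.413% and 0.341% in the PIASy-Mut libraries, against 0.264% in each PIASy-WT library. The difference was uneven across the family. Mrps6, Mrpl20, Mrpl34, Mrpl28 and Mrpl49 fell against both other groups, and genes such as Mrpl18 and Mrps14, which are among the most abundant of the family, did not fall. In the mm10 coordinates of the table Mrps6 lies at chr16:92058270-92112227, Mrpl20 at chr4:155802878-155809975, Mrpl34 at chr8:71464959-71465747, Mrpl28 at chr17:26123520-26126613 and Mrpl49 at chr19:6053630-6057751.

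Upstream sequences are shown for 3 of the 5 genes called lower in both comparisons, which were selected by those calls. The promoters shown differ in base composition and in motifs. RefSeq promoter windows of build GRCm38.p6 were matched by symbol for 69 of the 78 genes. Each sequence below runs from 250 bases before to 30 bases after the start of the gene in RefSeq, 5′ to 3′ on the gene's strand, in lower case with motif matches in capitals. The windows are chr8:71464676-71464955 on the plus strand for Mrpl34, chr19:6057726-6058005 on the minus strand for Mrpl49 and chr16:92058086-92058365 on the plus strand for Mrps6.
Mrpl34: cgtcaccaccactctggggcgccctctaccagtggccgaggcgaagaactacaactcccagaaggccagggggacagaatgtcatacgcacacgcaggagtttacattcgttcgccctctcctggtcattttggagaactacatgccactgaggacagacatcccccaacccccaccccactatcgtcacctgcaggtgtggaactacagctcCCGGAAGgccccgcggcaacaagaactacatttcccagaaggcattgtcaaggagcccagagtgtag
Mrpl49: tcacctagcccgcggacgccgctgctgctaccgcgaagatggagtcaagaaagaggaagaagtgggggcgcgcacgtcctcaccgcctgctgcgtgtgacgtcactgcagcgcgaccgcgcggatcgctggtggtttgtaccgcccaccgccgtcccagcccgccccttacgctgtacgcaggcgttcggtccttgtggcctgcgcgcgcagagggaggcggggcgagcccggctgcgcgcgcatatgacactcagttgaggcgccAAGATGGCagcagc
Mrps6: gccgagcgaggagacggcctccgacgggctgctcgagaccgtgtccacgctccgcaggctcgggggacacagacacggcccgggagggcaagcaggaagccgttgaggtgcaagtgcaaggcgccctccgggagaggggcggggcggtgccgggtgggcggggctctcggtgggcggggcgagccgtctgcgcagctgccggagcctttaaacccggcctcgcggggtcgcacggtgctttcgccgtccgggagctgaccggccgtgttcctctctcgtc
The capitals in the Mrpl34 window are a match to CCGGAAG, a core recognised by ETS family activators, which starts 37 bases before the gene start. The capitals in the Mrpl49 window are a match to AAGATGGC, the motif of the factor YY1, which starts at base 17 of the gene. No match lies in the Mrps6 window, nor in those of Mrpl20 and Mrpl28. GC content was 73.6% in the Mrps6 window and 43.2% in that of Mrpl20, the highest and lowest of the 5.

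The motifs were more frequent across the family than across all promoters. CCGGAAG was present on either strand in the 300-base windows of 25 of 69 members, or 36.2%, against 9.12% of 27025 mouse promoters. AAGATGGC was present in 12 members, or 17.4%, against 2.88% of all promoters. GCATGCGC, the core of the palindromic motif of NRF1, a regulator of nuclear genes for mitochondrial proteins, was present in 8 members, or 11.6%, against 2.80%. At least 1 of the 3 motifs was present in 37 members, or 53.6%, against 13.8% of all promoters. CCGGAAG ends with the letters AAG with which AAGATGGC begins, so that both can lie in 1 stretch. A match is only a stretch of letters, and binding was not measured here.

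The injected gene and the cell type followed the labels. Pias4 read 2.98 and 3.59 FPKM without injection, 862 and 611 with PIASy-Mut and 610 and 579 with PIASy-WT. FPKM scales fragments by gene length and by the depth of the library. The 2-cell markers Zscan4d and Zfp352 were present in every library at 61.4 to 187 and 144 to 326 FPKM. Summed over 5 such markers, the level was 807 and 578 CPM (counts scaled by depth only) in PIASy-WT and 874 to 1288 CPM elsewhere, so this list was lower together with the members. Of the 4 tested, Tdpoz4 fell in both PIASy-WT comparisons, at 9.49 and 10.9 FPKM against 29.9 to 40.0, and Zscan4d, Zfp352 and Usp17la did not pass by limma. The cumulus cell genes Amh and Inha were at 0 in all 6 libraries, and the other cumulus markers Has2, Ptgs2, Ptx3 and Fshr were at or under 0.760 FPKM. Tnfaip6 read 1.72 and 2.07 FPKM without injection, 2.83 and 5.37 with PIASy-Mut and 4.85 and 5.09 with PIASy-WT. PIASy-WT lay above non-injection by 1.05 on the log2 scale, which did not pass (limma, adjusted P = 0.154). Nr5a2, which the embryo also expresses, read 1.92 and 1.62 FPKM in PIASy-WT against 6.42 to 13.9 elsewhere and did not pass (limma, adjusted P = 0.0510 and 0.0642). Summed over 7 oocyte and maternal transcripts, the level was 7945 and 7558 CPM in PIASy-WT libraries and 3834 to 6310 CPM in the others. In FPKM the sums overlapped, at 4905 and 4131 in PIASy-WT against 2688 to 4376 in the others. Single genes differed in direction, with 1 of the 7 negative against non-injection and 3 against PIASy-Mut, and medians of 0.65 and 0.18. By limma 1 was lower in each comparison and 0 were higher. Of these, Bmp15, an oocyte growth factor, stood at 1283 and 1478 FPKM in PIASy-WT against 328 to 745 FPKM in the other libraries, and Zp3, an egg coat protein, at 25.1 and 22.4 against 70.9 to 80.6 FPKM. Their part in the results below was not tested. FPKM gives shares of a library, so that less of a transcript per embryo and more of all others cannot be told apart. Gene-assigned fragments numbered 871663 to 1363928 per library, and 3 fragments, the floor used here, correspond to 2.20 to 3.44 CPM. Such intervals and floors cover counting error only.

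The family spanned a wide range of abundance. Averaged over the 6 libraries, 3 members exceeded 100 FPKM, 43 lay from 10 to 100, 26 from 1 to 10 and 6 below 1, with a median of 11.9 FPKM. Mrpl40, a mitochondria-specific protein of the large subunit, led with a mean of 177 FPKM, and the 4 most abundant members, Mrpl40, Mrpl34, Mrpl18 and Mrpl41, held 30.6% of the family's FPKM. At the other end, Mrpl53 had no fragment in any library, a count that allows up to the floor above, but 88.0% of its exon bases are shared with another annotated gene on the same strand. Mrps5 and Mrpl23 were the next lowest, with at most 5 fragments in a library. Mrpl33 and Mrpl19, at most 9 and 10 fragments, also missed the filter of at least 1 FPKM in at least 2 libraries, and the remaining 73 members, 45 Mrpl and 28 Mrps, were tested.

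Against non-injected embryos, 7 of the 73 tested members fell in PIASy-WT-overexpressed embryos (adjusted P no higher than 0.05) and none rose. That is 9.59% of those tested, beside 5.76% of all 16100 tested genes called lower and 1.03% called higher. Against PIASy-Mut-overexpressed embryos, 7 members again fell and none rose, beside 6.01% of all tested genes called lower and 0.820% called higher. Every called gene changed by at least 1 on the log2 scale. Beyond a change of 2 lay 4 members against non-injection, beside 3.81% of all genes lower and 0.602% higher, and 5 against PIASy-Mut, beside 4.06% lower and 0.516% higher. The shares of members called lower were therefore not far above the background of all genes, and 9 members fell in at least 1 comparison and 5 in both. Under some other settings the order turned. With quantile normalization the share against PIASy-Mut was 1.37% of members beside 3.04% of all genes. In a fit without a mean-variance trend it was 1.37% of members in each comparison, beside 1.59% and 2.88% of all genes. The comparisons share the PIASy-WT libraries and are not independent. At an unadjusted P under 0.05, 25 members were lower and 3 higher than in non-injection, and 26 lower and 2 higher than in PIASy-Mut. That is 34.2% and 35.6% of members lower, where 17.6% and 18.2% of all tested genes were, and 4.11% and 2.74% higher, where 10.6% and 9.46% were.

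These counts changed when single libraries were left out. Leaving out a library leaves its group with 1, which is then assumed to vary like the other groups, and the injected Pias4 itself lost its call against non-injection in some of these fits, with an adjusted P of up to 0.244. With limma and without any 1 of the 4 non-injection and PIASy-WT libraries, no gene of the 16100 passed the threshold in either comparison, and 13 to 22 members had an unadjusted P under 0.05, 17.8% to 30.1% beside 16.1% to 23.6% of all genes. Without PIASy-Mut library 2, the library of fewest fragments, 13 members or 17.8% were called lower in each comparison, beside 1610 and 1763 of the 16100 genes. Without PIASy-Mut library 1 the count was 13 for the non-injection comparison, beside 9.66% of all genes, and 0 for the PIASy-Mut comparison, in which no gene passed. A weighted fit to the recovered fragment counts (voom) called 17 of 69 members lower in each comparison, 24.6%, where 18.9% and 18.7% of the 10193 genes in that fit were lower. It called higher only Mrpl48 and Mrps25, against non-injection, where 8.74% of the genes in that fit were higher. Against PIASy-Mut it called 0 members higher, beside 6.04% of those genes.

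**Figure D1:**
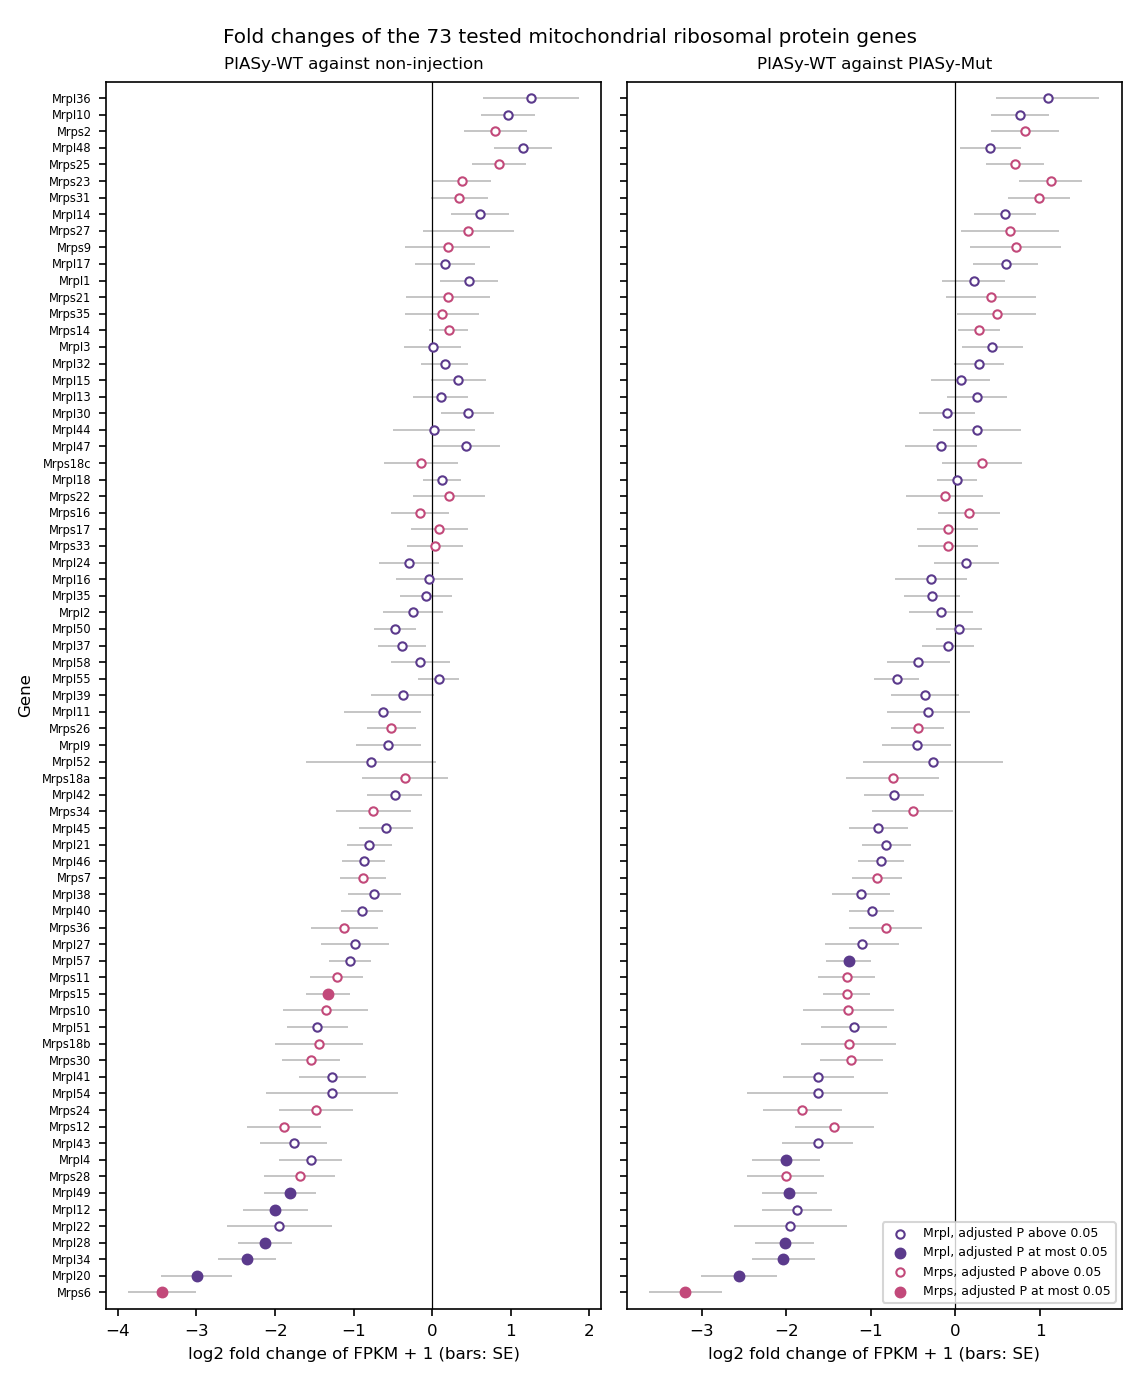
log2 fold change of FPKM + 1 for the 73 tested members in PIASy-WT against non-injection (left) and against PIASy-Mut (right), with 1 standard error as bars; members are ordered by the mean of both values, purple marks Mrpl and pink Mrps genes, and filled points have an adjusted P of at most 0.05. All filled points lie below 0, from Mrps6 at -3.44 and -3.20 upwards, and no member at the positive end is filled.

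Among the Mrpl genes, Mrpl20 had the largest fall in both comparisons. Mrpl20, whose bacterial homologue is needed early in assembly of the large subunit, read 41.4 and 52.6 FPKM without injection, 53.0 and 22.1 with PIASy-Mut and 5.89 and 4.18 with PIASy-WT. The PIASy-WT libraries lay below all others, by a log2 fold change of -2.996 ± 0.45 (SE, adjusted P = 0.0293) against non-injection and -2.56 ± 0.45 (adjusted P = 0.0342) against PIASy-Mut. Mrpl34, one of the smallest proteins of the ribosome and the second most abundant member here, read 205 and 262 FPKM without injection, 263 and 130 with PIASy-Mut and 46.0 and 43.0 with PIASy-WT. Its log2 fold change was -2.36 ± 0.37 (adjusted P = 0.0311) against non-injection and -2.04 ± 0.37 (adjusted P = 0.0359) against PIASy-Mut. The fall of this gene alone made up 27.8% of the difference in summed Mrpl FPKM between non-injection and PIASy-WT.

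Mrpl28, another homologue of a bacterial protein, read 67.9 and 66.6 FPKM without injection, 73.8 and 53.1 with PIASy-Mut and 19.5 and 10.9 with PIASy-WT. The groups did not overlap, with log2 fold changes of -2.12 ± 0.34 (adjusted P = 0.0319) and -2.02 ± 0.34 (adjusted P = 0.0321). Mrpl49, which has no bacterial counterpart, read 66.8 and 75.5 FPKM without injection, 97.3 and 64.6 with PIASy-Mut and 15.8 and 24.3 with PIASy-WT. Its log2 fold changes were -1.81 ± 0.33 (adjusted P = 0.0364) against non-injection and -1.96 ± 0.33 (adjusted P = 0.0310) against PIASy-Mut.

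Mrpl12, Mrpl4 and Mrpl57 passed in a single comparison each by limma and were negative in the other. Mrpl12, the stalk protein that contacts translation factors, read 30.6 and 41.0 FPKM without injection, 44.9 and 23.2 with PIASy-Mut and 6.40 and 10.2 with PIASy-WT. It fell by 2.00 ± 0.41 on the log2 scale against non-injection (adjusted P = 0.0454), and against PIASy-Mut the value was -1.87 ± 0.41 (adjusted P = 0.0524). Mrpl4, a protein whose bacterial homologue lines the exit tunnel for the nascent chain, read 22.4 and 24.0 FPKM without injection, 47.4 and 21.9 with PIASy-Mut and 6.63 and 7.98 with PIASy-WT. It fell against PIASy-Mut by 2.01 ± 0.40 (adjusted P = 0.0429), with -1.55 ± 0.40 against non-injection (adjusted P = 0.0715). Mrpl57, a mitochondria-specific protein, read 31.7 and 39.2 FPKM without injection, 44.2 and 38.4 with PIASy-Mut and 14.8 and 18.5 with PIASy-WT. It fell against PIASy-Mut by 1.26 ± 0.27 (adjusted P = 0.0482), with -1.05 ± 0.27 against non-injection (adjusted P = 0.0695).

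Of the small subunit genes, Mrps6 and Mrps15 passed. Mrps6, a homologue of a bacterial protein of the small subunit's platform, read 105 and 115 FPKM without injection, 139 and 62.1 with PIASy-Mut and 11.5 and 7.44 with PIASy-WT. These were 151 and 137, 151 and 57, and 16 and 9 fragments. The log2 fold changes of -3.44 ± 0.43 (adjusted P = 0.0247) and -3.20 ± 0.43 (adjusted P = 0.0240) were the largest in size of the family, and PIASy-WT kept 8.58% of the mean FPKM of non-injection. Of the exon bases of Mrps6, 15.1% are shared on the same strand with Slc5a3, and 17.3% of its 50-base stretches also occur in Gm49711. Mrps15, whose bacterial homologue binds ribosomal RNA early in assembly, read 15.2 and 13.1 FPKM without injection, 13.2 and 14.2 with PIASy-Mut and 4.90 and 5.14 with PIASy-WT. It rested on 10 to 35 fragments a library and fell by 1.32 ± 0.28 on the log2 scale against non-injection (adjusted P = 0.0475), with -1.29 ± 0.28 against PIASy-Mut (adjusted P = 0.0508).

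**Figure D2:**
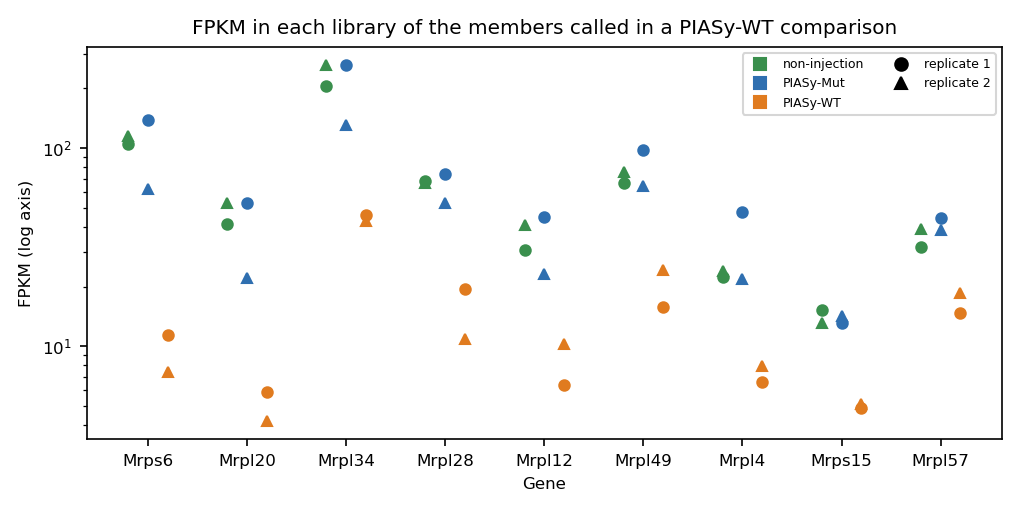
FPKM on a log axis of the 9 members called in at least 1 PIASy-WT comparison, with 1 point per library (circles for replicate 1, triangles for replicate 2) in green for non-injection, blue for PIASy-Mut and orange for PIASy-WT. For every gene both orange points lie under the 4 others, and for 7 of the 9 genes PIASy-Mut library 2 is the lowest of those 4.

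PIASy-Mut library 2 stood lower than the remaining controls for many members. It was the lowest of the 4 libraries without PIASy-WT in 28 of the 73 tested members, or 38.4%, against 25.6% of all tested genes. For Mrps6 it held 62.1 FPKM where the other 3 held 105 to 139, so that its value lay between those and PIASy-WT. Its embryos also had the highest summed level of maternal transcripts outside PIASy-WT, 6310 CPM. In FPKM that sum was 4376, which lay between the 4905 and 4131 of the PIASy-WT libraries. The part of this in the results was not tested.

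Groups that did not overlap were more common than calls. Both PIASy-WT libraries lay below all 4 others for 31 of the 73 tested members, 42.5%, where 24.4% of all tested genes did so, and above all 4 for 8 members, 11.0%, where 19.9% of all tested genes did so. The 31 comprised 19 Mrpl and 12 Mrps genes, and the 8 comprised 3 Mrpl and 5 Mrps genes. Without PIASy-Mut library 2 the counts were 33 below and 12 above, with 28.6% and 26.4% of all genes. The median log2 fold change of the tested members came to -0.39 relative to non-injection and -0.36 relative to PIASy-Mut, where that of all tested genes was 0.01 and -0.03. Under quantile normalization it was -0.24 and -0.16, with the median of all genes at 0.12 and 0.11. It was -0.23 and -0.21 with a pseudocount of 5, and -0.50 and -0.58 among genes that reached 5 FPKM in 2 libraries, with the median of all those genes at -0.11 and -0.14.

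Some members did not pass by limma but were called lower by voom in both comparisons, among them Mrpl22, Mrpl40 and Mrpl41. Mrpl22, a protein whose homologue lines the nascent chain tunnel, read 43.3 and 93.7 FPKM without injection, 117 and 35.1 with PIASy-Mut and 21.5 and 11.5 with PIASy-WT. The groups did not overlap, yet the log2 fold changes of -1.95 ± 0.67 in each comparison had an adjusted P of 0.124, with the control libraries spread from 35.1 to 117 FPKM. Of its 50-base stretches, 22.4% also occur in other annotated transcripts, most in Gm6997. Mrpl40, the most abundant member, read 182 and 226 FPKM without injection, 251 and 187 with PIASy-Mut and 117 and 101 with PIASy-WT, again without overlap. Its log2 fold changes of -0.90 ± 0.26 and -0.99 ± 0.26 did not pass by limma (adjusted P = 0.0929 and 0.0763). Mrpl41, the fourth in abundance, had 71.8 to 152 FPKM in the 4 other libraries and 29.7 and 50.9 in PIASy-WT, with log2 fold changes of -1.27 ± 0.42 and -1.62 ± 0.42 (adjusted P = 0.117 and 0.0714). By voom the adjusted P of Mrpl22 was 0.0321 and 0.0324, that of Mrpl40 0.0337 and 0.0232 and that of Mrpl41 0.0372 and 0.0119.

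Mrpl18, by contrast, stood level. This large subunit protein, which binds ribosomal RNA, read 106 and 116 FPKM without injection, 132 and 108 with PIASy-Mut and 113 and 129 with PIASy-WT. Its log2 fold changes were 0.12 ± 0.24 and 0.02 ± 0.24 (adjusted P = 0.763 and 0.974), and the groups overlapped. Its exons overlap Tcp1 on the opposite strand over 10.1% of their bases. Mrps14, the most abundant small subunit gene after Mrps6, read 62.8 and 75.7 FPKM without injection, 58.3 and 73.6 with PIASy-Mut and 81.1 and 78.5 with PIASy-WT. Both PIASy-WT libraries lay above the others, with log2 fold changes of 0.21 ± 0.25 and 0.28 ± 0.25 (adjusted P = 0.607 and 0.501). Mrps14 was chosen after its values were seen.

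At the positive end no member passed by limma, and voom called Mrpl48 (1.23, adjusted P = 0.0151) and Mrps25 (0.91, adjusted P = 0.0487) higher against non-injection. Mrpl36, a small zinc-binding protein with a bacterial homologue, had 2.28 to 6.32 FPKM in the 4 other libraries and 6.50 and 17.2 in PIASy-WT, from 3 to 23 fragments, at 1.25 ± 0.61 on the log2 scale against non-injection (adjusted P = 0.237). Mrpl10, which anchors the stalk formed by Mrpl12, had 8.51 to 14.1 FPKM in the other libraries and 21.6 and 17.3 in PIASy-WT, with 0.97 ± 0.34 against non-injection (adjusted P = 0.133). The pair of stalk genes thus lay at opposite ends of the family. Mrps2 had 7.54 to 14.8 FPKM in the other libraries and 21.5 and 17.3 in PIASy-WT, with 0.80 ± 0.40 (adjusted P = 0.247). Mrps23 had 35.3 and 36.8 FPKM in PIASy-WT against 11.0 to 29.1 elsewhere, with 0.38 ± 0.37 against non-injection and 1.13 ± 0.37 against PIASy-Mut (adjusted P = 0.541 and 0.117). Mrps25 had 23.9 and 22.8 FPKM in PIASy-WT against 10.5 to 18.3 elsewhere, with 0.85 ± 0.34 against non-injection (adjusted P = 0.172), but 69.8% of its exon bases lie opposite Nr2c2, and the strand setting of the counting is not given in the sources used here. Mrpl48 had 23.2 and 32.6 FPKM in PIASy-WT and 10.2 to 26.5 elsewhere, with 1.16 ± 0.36 against non-injection (adjusted P = 0.106), and PIASy-Mut library 2 lay within the PIASy-WT range.

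**Figure D3:**
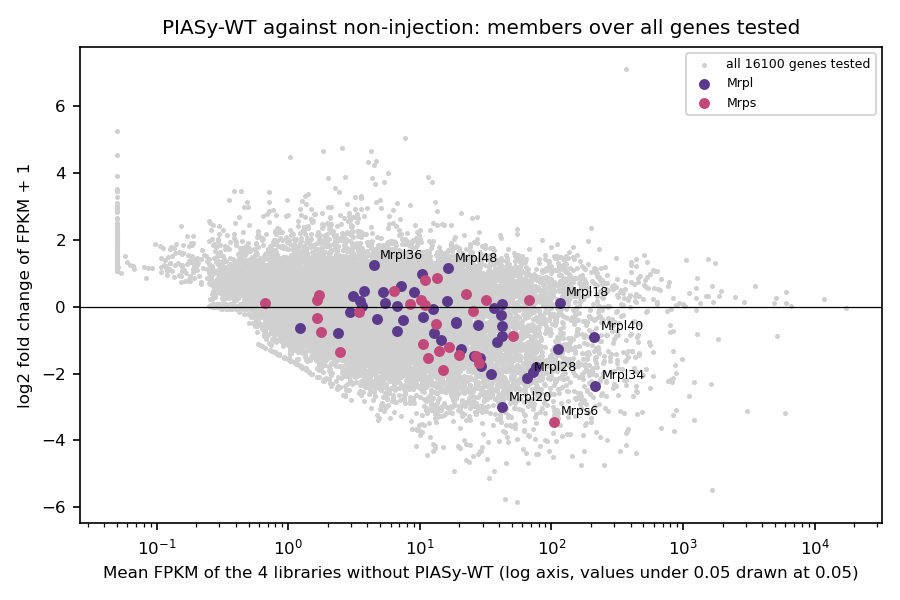
Mean FPKM of the 4 libraries without PIASy-WT (log axis) against the log2 fold change of FPKM + 1 in PIASy-WT over non-injection, for all 16100 tested genes in grey and the tested Mrpl (purple) and Mrps (pink) genes. Members lie within the grey cloud, with Mrps6 and Mrpl20 near its lower edge and Mrpl18 near 0 at a similar level to Mrps6.

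Gene length and change are given together as a description only. Spearman's correlation between gene length and log2 fold change over the 73 members was 0.39 for the non-injection and 0.38 for the PIASy-Mut comparison, the shorter genes having the lower values, where over all tested genes it was -0.02 in each. Between mean FPKM over the 6 libraries and log2 fold change, the members' correlation was -0.36 and -0.42, similar in size. The members share libraries and FPKM is divided by length, so the points are not independent. The median length of members was 2114 bases, and that of tested protein-coding genes 3733. The 9 called members were at most 2956 bases long, with a median of 1664. The 78 genes lie on 17 chromosomes.

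Summed by subunit name, both sets were lower in PIASy-WT. The Mrpl genes held 1320 and 1661 FPKM without injection, 1838 and 1302 with PIASy-Mut and 801 and 820 with PIASy-WT. The PIASy-WT libraries lay below all 4 others, at 54.4% of the non-injection mean and 51.6% of the PIASy-Mut mean. The Mrps genes held 497 and 596 FPKM without injection, 585 and 456 with PIASy-Mut and 377 and 352 with PIASy-WT, which was 66.7% and 70.1% of those means. Mrps6 made up 55.3% of the difference from non-injection in the Mrps sum. Without it PIASy-WT kept 81.4% of the non-injection and 84.6% of the PIASy-Mut mean. Scaled by depth only, the Mrpl genes held 1627 and 1726 CPM in PIASy-WT against 2202 to 2917 in the other libraries. On that scale the Mrps genes lay closer together, at 1014 and 914 CPM against 1054 to 1310. The mitochondria-specific Mrps genes overlapped, at 416 and 377 CPM against 354 to 489. The ratio of Mrpl to Mrps FPKM was 2.65 and 2.79 without injection, 3.14 and 2.86 with PIASy-Mut and 2.12 and 2.33 with PIASy-WT, without overlap. With 2 libraries a group, an exact two-sided permutation test cannot go below P = 0.333, and none was run on these sums.

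**Figure D4:**
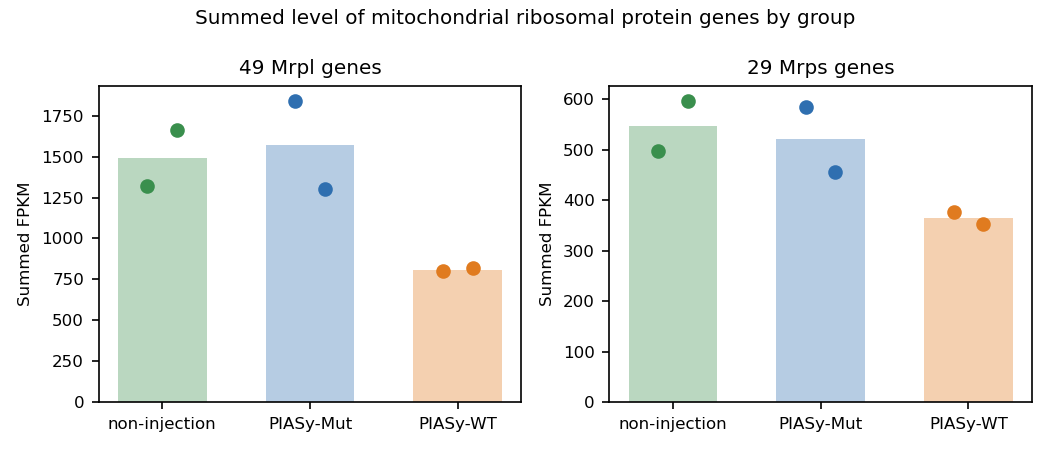
Summed FPKM of the 49 Mrpl genes (left) and the 29 Mrps genes (right), with 1 point per library and the group mean as a bar, both axes starting at 0. The PIASy-WT points lie under every other point, at 801 and 820 FPKM for Mrpl and at 377 and 352 FPKM for Mrps genes.

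Gene by gene, counts and medians were taken by name and by place. Among the 45 tested Mrpl genes 5 fell relative to non-injection and 6 relative to PIASy-Mut, with medians of -0.47 and -0.36, and among the 28 tested Mrps genes 2 and 1 fell, with medians of -0.25 and -0.29. The shares called lower were 11.1% and 13.3% of Mrpl and 7.14% and 3.57% of Mrps genes, beside 5.76% and 6.01% of all genes. Placed by the structure of the mammalian ribosome, as described below for Mrps30, Mrps18a and Mrps36, the 47 tested large subunit genes had medians of -0.47 and -0.44 and the 25 tested small subunit genes -0.14 and -0.09. Whether the subunits differ was not tested, since their genes come from the same libraries. Of the 41 tested homologues of bacterial proteins 6 and 5 fell, with medians of -0.16 and -0.17, and of the 32 tested mitochondria-specific genes 1 and 2 fell, with medians of -0.50 and -0.60. These were 14.6% and 12.2% of the homologues and 3.13% and 6.25% of the mitochondria-specific genes, the latter near the share of all genes. Here Mrps18c was counted with the bacterial homologues, and Mrps18a and Mrps18b, its own homologues, with the mitochondria-specific genes. Medians with these genes moved were not calculated. Of the 9 called members, all but Mrpl49 and Mrpl57 were homologues of bacterial proteins, while the mitochondria-specific genes had the lower median. Within the latter, the 19 tested Mrpl genes had medians of -0.74 and -0.88 and the 13 tested Mrps genes 0.04 and -0.13. Among the homologues the order was the other way, with -0.06 and -0.17 for 26 Mrpl genes and -0.88 and -0.93 for 15 Mrps genes.

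Some members are named for a place they do not hold. Mrps30 and Mrps18a belong to the large subunit in mammals, and Mrps36 is now placed in the oxoglutarate dehydrogenase complex of the citric acid cycle. Mrps30 read 12.1 and 13.4 FPKM without injection, 13.2 and 7.57 with PIASy-Mut and 3.17 and 4.31 with PIASy-WT, with log2 fold changes of -1.55 ± 0.37 and -1.23 ± 0.37 that did not pass by limma (adjusted P = 0.0605 and 0.0963), while voom called it lower in both comparisons (-1.77, adjusted P = 0.00631, and -1.45, adjusted P = 0.0223). Mrps36 had 6.30 to 13.9 FPKM in the other libraries and 5.33 and 4.10 in PIASy-WT, with -1.12 ± 0.43 against non-injection (adjusted P = 0.156). Mrps18a, Mrps18b and Mrps18c are homologues of each other that sit at separate sites. Mrps18b had 11.0 to 28.8 FPKM in the other libraries and 8.67 and 5.00 in PIASy-WT, with -1.44 ± 0.56 against non-injection (adjusted P = 0.162). Mrps18c had 17.1 to 40.3 FPKM in the other libraries and 18.2 and 35.6 in PIASy-WT, with -0.14 ± 0.48 (adjusted P = 0.872). Mrps18a rested on 1 to 10 fragments a library, with -0.35 ± 0.55 (adjusted P = 0.711), and the direction of these last 2 genes turned when single libraries were left out.

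Between PIASy-Mut-overexpressed and non-injected embryos, limma called 0 of the 73 members, where 0% of all tested genes were lower and 0.00621%, a single gene, was higher. That gene was Pias4. At an unadjusted P under 0.05 no member was lower and 1 was higher, 0% and 1.37% beside 2.09% and 2.37% of all tested genes. Voom called 0 members, where 0% of the genes in that fit were lower and 0.0196% higher. The median log2 fold change of the members was -0.02, beside 0.04 over all tested genes. The largest values in size were those of Mrpl55 at 0.78 ± 0.26, Mrps23 at -0.75 ± 0.37 and Mrpl48 at 0.74 ± 0.36, all with an adjusted P near 1. Mrpl55 read 27.8 and 33.6 FPKM without injection, 53.8 and 52.5 with PIASy-Mut and 37.5 and 28.0 with PIASy-WT. The absence of calls does not show that the groups were alike.

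Other genes of mitochondrial protein synthesis were followed in lists. Of the 5 mitoribosome proteins without an Mrp symbol, Gadd45gip1, a large subunit protein near the exit of the nascent chain, fell in both comparisons. It read 15.3 and 19.1 FPKM without injection, 27.6 and 13.8 with PIASy-Mut and 2.12 and 1.40 with PIASy-WT. Its log2 fold changes were -2.73 (adjusted P = 0.0293) and -2.91 (adjusted P = 0.0252). The others, Dap3, Chchd1, Aurkaip1 and Ptcd3, did not pass by limma, voom called Aurkaip1 lower in both comparisons, and the median of the 5 was -0.85 and -0.78.

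Of the 12 tested mitochondrial translation factors, such as the elongation factors Tufm and Gfm1, limma called none in either PIASy-WT comparison. At an unadjusted P under 0.05 none was changed against non-injection. Against PIASy-Mut 2 were lower and 1 higher, 16.7% and 8.33% beside 18.2% and 9.46% of all genes. Voom called 0 and 1 of 11 lower, where 18.9% and 18.7% of the genes in that fit were lower. Their medians were -0.34 and -0.27. Of the 28 tested assembly and ribosomal RNA modification factors, such as Nsun4 and Trub2, limma called none in either comparison. At an unadjusted P under 0.05, 4 and 5 were lower, 14.3% and 17.9% beside 17.6% and 18.2% of all genes. In each comparison 1 was higher, 3.57% beside 10.6% and 9.46% of all genes. Of 21 in its fit, voom called Mettl17 and Trub2 lower in each comparison, where 18.9% and 18.7% of the genes in that fit were lower. It called Nsun4 higher against non-injection, where 8.74% of those genes were higher. Trub2, a pseudouridine synthase, had 2.00 to 7.52 FPKM in the other libraries and 0.358 and 0.551 in PIASy-WT, with log2 fold changes of -1.87 and -1.80 (limma, adjusted P = 0.102 and 0.111). Medians of this list were -0.20 and -0.45.

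Some genes of mitochondrial transcription and protein import also fell. Of 13 tested, limma called 2 lower relative to non-injection and 4 relative to PIASy-Mut, 15.4% and 30.8% beside 5.76% and 6.01% of all genes, with medians of -0.92 and -1.01. Voom called 4 of 12 lower in each, where 18.9% and 18.7% of the genes in that fit were lower. Tomm22, a receptor of the import pore in the outer membrane, read 93.5 and 153 FPKM without injection, 134 and 89.7 with PIASy-Mut and 19.0 and 12.5 with PIASy-WT. Its log2 fold changes were -2.87 (adjusted P = 0.0251) and -2.75 (adjusted P = 0.0240). Tomm20, another receptor of that pore, fell by 1.87 and 2.00 on the log2 scale (adjusted P = 0.0391 and 0.0339). Against PIASy-Mut, Timm17a, a component of the inner membrane translocase, and Tefm, the elongation factor of mitochondrial transcription, also fell, by 1.94 and 2.47 (adjusted P = 0.0369 and 0.0491). Their values against non-injection were -1.50 and -1.97 (adjusted P = 0.0615 and 0.0761).

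The proteins that this ribosome makes, are encoded by mitochondrial DNA, and none of their 13 tested genes passed by limma in either comparison. Their standard errors against non-injection ran from 0.41 for mt-Atp8 to 1.31 for mt-Nd4l on the log2 scale, so that a change the size of the members' median was not detectable. At an unadjusted P under 0.05 none was changed against non-injection, beside 17.6% of all genes lower and 10.6% higher. Against PIASy-Mut 1 was higher, 7.69% beside 9.46% of all genes. Of 10 in its fit, voom called mt-Nd1 higher against PIASy-Mut, where 6.04% of the genes in that fit were higher. Summed, they held 63606 and 64284 CPM without injection, 12526 and 69471 with PIASy-Mut and 57791 and 80855 with PIASy-WT. PIASy-Mut library 1 thus stood apart from the other 5, and the median of 1.21 against PIASy-Mut includes it, the median against non-injection being 0.14.

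Ribosomal proteins of the cytosol had lower medians than those of mitochondria, a difference that was not tested. Of 84 tested, 35 fell against non-injection and 39 against PIASy-Mut and none rose, 41.7% and 46.4% beside 5.76% and 6.01% of all genes, with medians of -1.79 and -1.83. At an unadjusted P under 0.05, 69 and 73 were lower and none higher, 82.1% and 86.9% beside 17.6% and 18.2% of all genes. Voom called 62 and 60 of 83 lower, where 18.9% and 18.7% of the genes in that fit were lower. Rps27, with log2 fold changes of -4.38 and -4.17, and Rpl41, with -3.72 and -3.64, had the most negative values against non-injection. Cytosolic ribosomal protein genes have many pseudogenes of near-identical sequence, so single values of that list are uncertain.

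**Figure D5:**
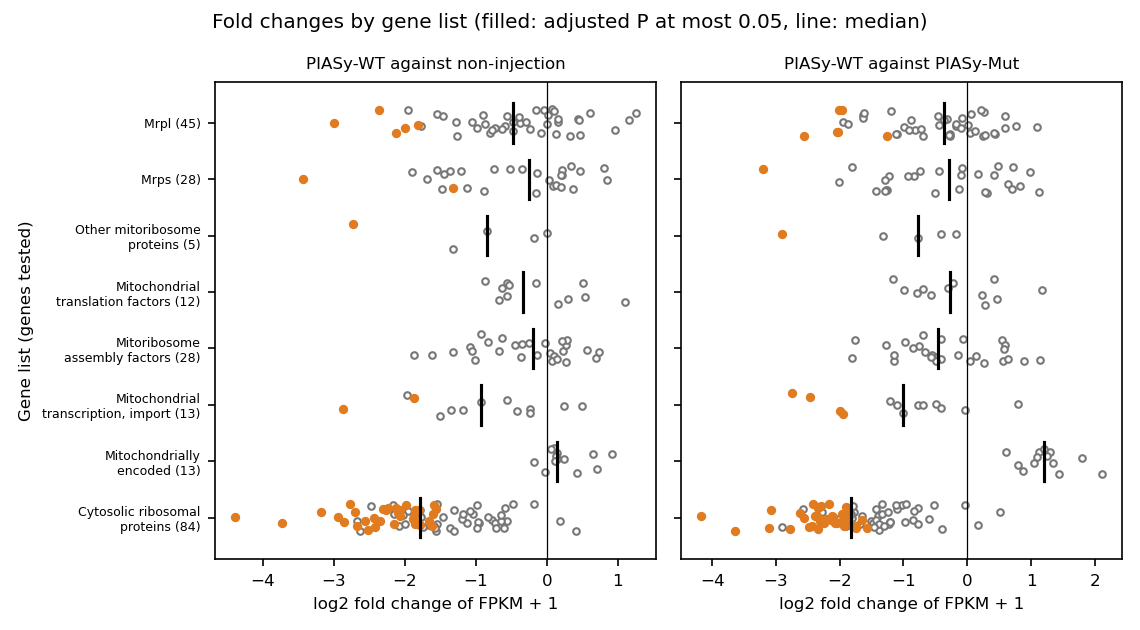
log2 fold change of FPKM + 1 of each tested gene in PIASy-WT against non-injection (left) and PIASy-Mut (right), by gene list, with the number tested in brackets; filled orange points have an adjusted P of at most 0.05 and black lines are medians. Cytosolic ribosomal proteins centre at -1.79 and -1.83, Mrpl and Mrps genes between -0.25 and -0.47, and mitochondrially encoded genes above 0.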

How the data were processed

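RNA of 6 pools of 5 embryos was amplified with SMART-Seq v4, and paired reads of 50 and 25 bases were trimmed (Trim Galore), aligned to mm10 (STAR) and counted per gene (featureCounts), as the study's methods and the submitters' processing notes state. Versions, gene annotation and strand setting are not given in the sources used here. The authors deposited FPKM for 53023 genes in 6 libraries. Every value gave a whole number of fragments within 0.001, which gave the depth of each library. ERCC spike-in RNA was added at lysis, as the methods state, but the table used here holds values without spike-in rows (0), so amounts per embryo were not analysed here.

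The members and lists were chosen with earlier results of these data known. Genes that reached 1 FPKM in 2 or more libraries (16100) were fitted with limma 3.58.1 (R 4.3.3; lmFit, eBayes with a trend) on log2(FPKM + 1), by group over all 6 libraries, with Benjamini-Hochberg adjustment over all genes tested, with a call threshold of 0.05. The authors' own test, DESeq2 on counts, was not repeated. Fold changes on this scale understate those of low genes. The study's methods use n for biological replicates and give 2 for this experiment. Whether the pools of a group came from separate fertilizations is not given in the sources used here, and P values measure the spread between these libraries. Genes named are all called members, the 6 lowest and 6 highest by mean log2 fold change, the 4 most and 3 least abundant, members with at most 3 fragments in each library, the 3 largest in PIASy-Mut against non-injection, Mrps18a, Mrps18b, Mrps18c, Mrps30, Mrps36 and Pias4. Lists were described by counts and medians. Exon overlap was taken from the exon coordinates deposited with the FPKM values, and shared 50-base stretches from GENCODE M21 transcripts. Alternatives were pseudocounts of 0.1 and 5, other filters, TPM, quantile and median of ratios scaling, eBayes without a trend or robust, fits of 4 libraries, a replicate block, voom on fragments, and leaving out each library. Scripts were tested on simulated data.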

Additional observations from a re-analysis of the deposited data

How the results depend on the processing

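No called member changed sign under any of 18 alternatives. Mrps6 was called under 14 of them against non-injection and 12 against PIASy-Mut, Mrpl34 under 12 and 8, and Mrpl57 under 2 and 4. The counts were far less stable, and with 2 libraries a group the depth and the spread limit what can be called. The causes were not tested, other than that the filters change how many genes enter the adjustment.

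For PIASy-WT against non-injection the count of members called lower was 1 without a filter, 15 with an FPKM of at least 5, 4 with TPM, 1 without a trend, 13 from the 4 libraries compared and 17 with voom, which also called 2 higher. All genes called lower were 154 without a filter, 1441 with an FPKM of at least 5, 448 with TPM, 256 without a trend, 1563 from 4 libraries and 1930 with voom. As shares of the genes tested these were 0.553%, 17.4%, 2.29%, 1.59%, 9.71% and 18.9%. Without a trend the members' share thus lay below that of all genes. All genes called higher were 107 with a pseudocount of 0.1, 16 without a filter, 332 with an FPKM of at least 5, 59 without a trend, 730 from 4 libraries and 891 with voom. As shares these were 0.66%, 0.0575%, 4.01%, 0.37%, 4.53% and 8.74%.

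For PIASy-WT against PIASy-Mut members called lower were 1 without a filter, 15 with an FPKM of at least 5, 4 with TPM, 1 with quantile normalization, 1 without a trend, 0 from 4 libraries and 17 with voom. All genes called lower were 243 without a filter, 1483 with an FPKM of at least 5, 607 with TPM, 490 with quantile normalization, 629 with median of ratios scaling, 464 without a trend, 0 from 4 libraries and 1910 with voom. As shares of the genes tested these were 0.873%, 17.9%, 3.10%, 3.04%, 3.91%, 2.88%, 0% and 18.7%. With quantile normalization and without a trend the members' share lay below that of all genes. All genes called higher were 11 without a filter, 207 with an FPKM of at least 5, 0 from 4 libraries and 616 with voom. As shares these were 0.0395%, 2.50%, 0% and 6.04%. For PIASy-Mut against non-injection genes called higher were 0 from 4 libraries and 2 with voom.

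Leaving out 1 library gave 0 to 13 members lower in each PIASy-WT comparison. All genes lower ranged from 0 to 1610 and higher from 0 to 712 against non-injection, lower from 0 to 1763 and higher from 0 to 865 against PIASy-Mut, and higher from 0 to 1 for PIASy-Mut against non-injection. PIASy-WT held 48.8% to 61.4% of the non-injection and 44.1% to 62.2% of the PIASy-Mut FPKM of Mrpl genes, and 61.2% to 73.3% and 62.3% to 80.1% of that of Mrps genes. These summed values without a library, and the counts of groups that do not overlap without one, were chosen after seeing the data. With TPM the Mrpl share of non-injection was 57.0%, and without Mrps6 the Mrps shares were 81.4% and 84.6%.

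Over the fits that leave out 1 library, Mrps18c relative to non-injection took values of -0.64 to 0.35, Mrps18c relative to PIASy-Mut -0.15 to 0.77, and Mrpl18 from -0.13 to 0.17 against PIASy-Mut and Mrps18a from -0.84 to 0.14 against non-injection. Mrps18c against non-injection turned to 0.16 with quantile normalization, 0.35 without non-injection library 2 and 0.32 without PIASy-WT library 1, and against PIASy-Mut to -0.15 without PIASy-WT library 2. Mrpl18 against PIASy-Mut turned to -0.13 without PIASy-Mut library 2 and -0.08 without PIASy-WT library 2, and Mrps18a against non-injection to 0.14 without PIASy-WT library 2.

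Groups share replicate numbers, but no label ties a number to a batch, and the correlations of deviations between libraries of the same number were 0.00368, 0.0851 and 0.0637 over 16100 genes, so the numbers were not taken as a pairing. With the replicate block 4 members were called lower relative to non-injection and 7 relative to PIASy-Mut, with 719 and 799 of all genes lower and 89 and 67 higher. Those called lower were 5.48% and 9.59% of members, beside 4.47% and 4.96% of all genes.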
